A study of Mus musculus with 6 samples.

Results

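Layer 5 subcerebral projection neuron genes are described here as 10 genes, Bcl11b, Bcl11a, Ldb2, Etv1, Pex5l, Diap3, Crim1, Crym, S100a10 and Opn3, taken by symbol from a table of 23016 entries, and each matched 1 entry. RNA came from the cerebral cortex of newborn pups (postnatal day 0) born to Fezf2+/- parents, 3 Fezf2 KO pups (Fezf2-/-) and 3 wild type pups (Fezf2+/+), with 1 brain and 1 library each. Litter m1 supplied replicates 1 and 2 of each genotype and litter m2 supplied replicate 3. The comparison asks which transcripts differ in newborn cortex without an intact Fezf2 gene. The allele was inherited, so it was present in every cell and at every stage; which exons it removes was not stated in the labels.

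Subcerebral projection neurons are the large pyramidal cells of layer 5 whose axons leave the cortex for the brainstem and the spinal cord. Fezf2, a zinc finger transcription factor, is needed to specify them, and Bcl11b (CTIP2) acts downstream of it in the growth of their axons. The other genes are known as markers of these cells in sorted neurons or in tissue sections, and several are made elsewhere in the brain as well: Bcl11b, for example, is a transcription factor of striatal neurons.

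Bcl11b and Bcl11a encode sister zinc finger proteins, and their levels differed in how they followed genotype. Their promoters are shown side by side, and a link between promoter sequence and that difference was not tested. The sequences are RefSeq's 300 bases around each annotated start (250 before, 50 after) in GRCm38.p6. Capitals mark the GC box GGGCGG, the TATA box TATAAA and the CCAAT box CCAAT, read on either strand, and no marked motif overlapped another.
Bcl11b, chr12:108003365-108003664, minus strand: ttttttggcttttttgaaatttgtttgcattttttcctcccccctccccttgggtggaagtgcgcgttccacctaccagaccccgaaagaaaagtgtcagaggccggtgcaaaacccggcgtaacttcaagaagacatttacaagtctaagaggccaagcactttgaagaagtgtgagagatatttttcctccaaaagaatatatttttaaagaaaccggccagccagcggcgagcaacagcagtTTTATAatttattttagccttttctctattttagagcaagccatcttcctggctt
Bcl11a, chr11:24080445-24080744, plus strand: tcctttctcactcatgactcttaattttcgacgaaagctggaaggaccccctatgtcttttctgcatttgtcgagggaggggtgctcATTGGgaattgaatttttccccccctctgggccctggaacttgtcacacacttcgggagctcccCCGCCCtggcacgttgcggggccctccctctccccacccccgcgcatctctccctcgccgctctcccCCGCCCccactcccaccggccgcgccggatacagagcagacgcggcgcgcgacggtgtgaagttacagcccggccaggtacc
The Bcl11b window held 9 CpG dinucleotides and was 43% G and C, with no GC box and no CCAAT box. It had 1 TATA box motif, read on the opposite strand at bases 246 to 251 of the window. The Bcl11a window held 23 CpG dinucleotides and was 63% G and C, with 2 GC boxes and 1 CCAAT box, each on the opposite strand. Among the 32851 promoter windows of the same length, the median was 7 CpG, 35.7% held a GC box, 13.6% a TATA box and 37.4% a CCAAT box. The E box CAGATG, also searched, was in neither window and in 17.2% of all. Promoter windows were found for 5 of the 10 genes. A match is only a run of letters, and which start site the cortex used was not measured.

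The unit throughout is the normalised read count, the reads of a gene divided by 1 size factor per library and not scaled to gene length, so levels are compared between libraries and not between genes. Where 3 values of a genotype are listed, they are those of replicates 1, 2 and 3 in that order. Gene reads per library numbered 44978380 to 52872577. Fezf2 itself had 1989, 1377 and 1533 in Fezf2 KO cortex, against 5030, 5928 and 5396 in wild type cortex, which left 30.0% of the wild type mean. Libraries also differed in markers of tissue around the cortex, and whether dissection or genotype set those levels was not tested. Choroid plexus genes (8, led by Ttr) summed to 10481, 771 and 783 in Fezf2 KO cortex, against 560 to 849 in wild type libraries. Meningeal genes (10, such as Col1a2) summed to 1161 to 1389 in Fezf2 KO libraries, against 7825, 1223 and 825 in wild type cortex. Genes of the striatum (19), the tissue under the cortex, summed to 27057, 35385 and 28232 in Fezf2 KO cortex, against 40866, 37001 and 35822 in wild type cortex, and none was at 0 in any library. The most abundant of them carry this sum, such as Meis2 at 80.1% of the wild type mean. The median log2 change of the 19 was -1.07. Cortical projection neuron markers (6, including Neurod6 and Neurod2) summed to 80450 to 91503 in Fezf2 KO libraries, against 73177 to 84105 in wild type libraries, and 0 of them passed limma, edgeR or DESeq2 (0 at an unadjusted p under 0.05). Fezf2 KO 1 and wild type 1 stand apart by these markers, and values without both are given for the 6 genes whose genotypes do not overlap.

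Of the 10 layer 5 genes, 0 changed by limma at an adjusted p under 0.05 over all 17557 genes tested, where 0.712% of genes were called. All 10 passed the filter on low values. At an unadjusted p under 0.05, 6 were lower in Fezf2 KO cortex and 0 higher, against 4.37% of all genes lower and 4.66% higher at that level. These 6 are Bcl11b, Crym, Ldb2, Diap3, Pex5l and Etv1, and in the same 6 every Fezf2 KO library lay below every wild type library, as in 6.85% of all genes tested. Since the genes were chosen with earlier results of these data known, their count is a description. The median log2 change was -0.38 over the 10 genes and 0.0025 over all genes tested. By other tools, edgeR with TMM or RLE factors and limma-voom called 0 of the 10 (edgeR with TMM called 0.308% of all genes lower), and DESeq2 called 2, Pex5l and Etv1, with 0.917% of all genes lower. Limma called 2 of the 10 without Fezf2 KO 1 (Crym and Pex5l, 0.332% of all genes lower) and 2 without Fezf2 KO 2 (Bcl11b and Pex5l, 0.447%). It called 1, Crym, without both Fezf2 KO 1 and wild type 1 (0.133%). In whole cortex, fewer cells of a type and less RNA per cell cannot be told apart.

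**Figure D1:**
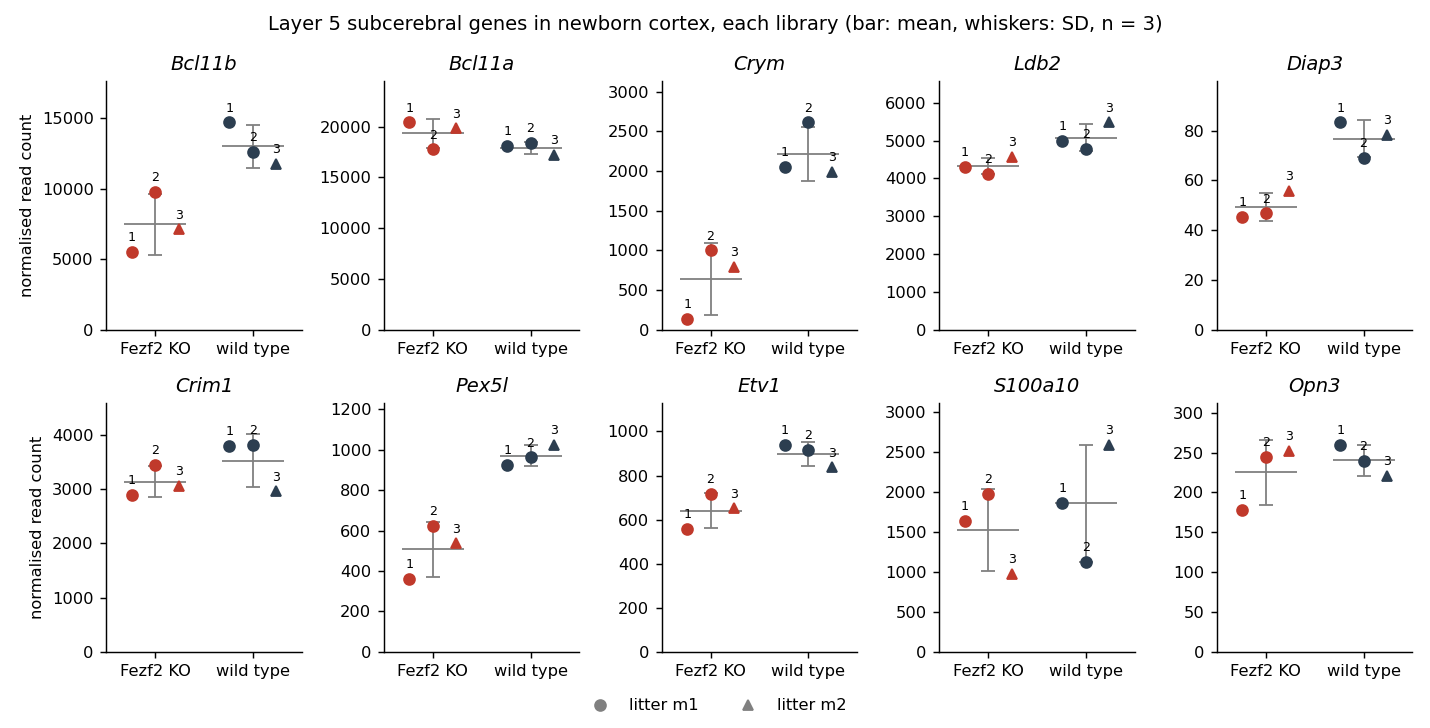
Normalised read count (vertical axes, from 0) of each of the 10 genes in 3 Fezf2 KO and 3 wild type libraries, numbered by replicate, with the mean and SD of each genotype. Fezf2 KO 1 is lowest for Bcl11b (5534) and Crym (131), and the genotypes overlap for Bcl11a, Crim1, S100a10 and Opn3.

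The first group is the transcriptional regulators. Bcl11b, the factor CTIP2, had 5534, 9755 and 7116 in Fezf2 KO cortex, against 14713, 12618 and 11760 in wild type cortex. The genotypes did not overlap, and Fezf2 KO 2 was the nearest to wild type. The means were 7468 ± 2132 in Fezf2 KO and 13030 ± 1519 in wild type (SD, n = 3 each), 57.3% of wild type, with a log2 change of -0.84 (95% interval -1.25 to -0.42). Its adjusted p was 0.114 by limma, 0.149 by edgeR and 0.078 by DESeq2. Without Fezf2 KO 2 the log2 change was -1.05 (limma adjusted p = 0.0164). Without Fezf2 KO 1 it was -0.64 (0.158), and without both Fezf2 KO 1 and wild type 1 it was -0.55 (0.310). Over all alternatives the adjusted p ran from 0.0164 to 0.56.

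Bcl11a, the paralog CTIP1, which is also made by cortical projection neurons of other layers, had 20419, 17768 and 19825 in Fezf2 KO cortex, against 18113, 18386 and 17220 in wild type cortex. Here Fezf2 KO 2 lay inside the wild type range and the other Fezf2 KO libraries lay above it. The log2 change was 0.11 (95% interval -0.024 to 0.24, limma adjusted p = 0.672), so a loss of the size seen for Bcl11b lay outside the interval. The log2 ratio of Bcl11b to Bcl11a within a library was -1.88, -0.87 and -1.48 in Fezf2 KO cortex, against -0.30, -0.54 and -0.55 in wild type cortex. The ratio was thus below every wild type library in each Fezf2 KO library, by 0.94 on average. An exact two-sided permutation test of the ratio gave p = 0.1, the smallest that 3 against 3 libraries allow. An assembled transcript antisense to Bcl11a, linc-Bcl11a-AS, had 1354, 1194 and 1334 in Fezf2 KO cortex, against 1202, 1275 and 1312 in wild type cortex, also with overlap.

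Ldb2 (CLIM1), a cofactor that bridges LIM-homeodomain proteins, had the narrowest separation of the 6. It stood at 4299, 4122 and 4558 in Fezf2 KO cortex, against 4989, 4774 and 5479 in wild type cortex. The lowest wild type library exceeded the highest Fezf2 KO library by little, and the log2 change was -0.23 (SE 0.066, limma adjusted p = 0.259), 85.2% of wild type. Unlike Bcl11b, Ldb2 did not have its highest Fezf2 KO value in Fezf2 KO 2. A noncoding entry named after it, linc-Ldb2, had 4.06, 2.69 and 3.53 in Fezf2 KO cortex, against 2.81, 2.62 and 2.58 in wild type cortex. It was not tested because of its low values.

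Etv1 (ER81), an ETS-family transcription factor of layer 5 neurons, had 557, 716 and 651 in Fezf2 KO cortex, against 940, 918 and 837 in wild type cortex. Every Fezf2 KO library lay below wild type, and their order was that of Bcl11b. The log2 change was -0.49 (SE 0.105, 95% interval -0.73 to -0.25), with an adjusted p of 0.108 by limma and 0.00351 by DESeq2, the lowest of its alternatives, which reached 0.573.

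The second group acts at the membrane and the cytoskeleton. Pex5l (TRIP8b), an auxiliary subunit that sets the traffic and gating of HCN channels, came closest of the 10 to the threshold. It had 359, 625 and 537 in Fezf2 KO cortex, against 925, 962 and 1026 in wild type cortex. Wild type libraries lay close together and the Fezf2 KO libraries spread over a 1.74-fold range below them. The mean was 507 ± 136 in Fezf2 KO and 971 ± 50.9 in wild type (SD, n = 3 each), with a log2 change of -0.97 (SE 0.182, limma adjusted p = 0.0673). Without both Fezf2 KO 1 and wild type 1 the log2 change was -0.78 and the limma adjusted p 0.0688. The adjusted p was 0.0241 without Fezf2 KO 1 alone, 0.0323 without Fezf2 KO 2 and 2.67e-05 by DESeq2, and 0.466 with litter m1 alone, the highest of its alternatives.

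An assembled noncoding transcript annotated as antisense to Pex5l, linc-Pex5l-AS, moved like it. Its main entry had 112, 222 and 166 in Fezf2 KO cortex, against 325, 341 and 354 in wild type cortex. The log2 change was -1.08 (SE 0.221, limma adjusted p = 0.0934), with no overlap between genotypes and the same order of the Fezf2 KO libraries as Pex5l. Whether the libraries keep strand is not recorded in the labels, and reads of the gene and of its antisense partner cannot be told apart. A second entry of the same name had 2.44 to 4.49 in Fezf2 KO and 7.73 to 9.36 in wild type libraries and was not tested because of its low values.

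Diap3, a diaphanous-related formin that builds actin filaments and also serves cell division, is the least read of the 10, with 52 to 63 reads in Fezf2 KO and 79 to 91 in wild type libraries. Normalised, it had 45.5, 46.7 and 55.6 in Fezf2 KO cortex, against 83.3, 68.9 and 78.2 in wild type cortex. The genotypes did not overlap, and the log2 change was -0.63 (SE 0.165, limma adjusted p = 0.204). Markers of dividing cells (12, such as Mki67 and Top2a) had a median log2 change of -0.041 with 0 past limma, edgeR or DESeq2 (0 at an unadjusted p under 0.05 and 0 without overlap). Their levels summed to 5667 to 7941 in Fezf2 KO and 6012 to 7270 in wild type libraries.

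Crim1, a transmembrane protein with cysteine-rich repeats that bind BMPs, had 2896, 3451 and 3067 in Fezf2 KO cortex, against 3806, 3825 and 2961 in wild type cortex. The genotypes overlapped because wild type 3, from litter m2, was as low as the Fezf2 KO libraries. The log2 change was -0.16 (95% interval -0.42 to 0.088, limma adjusted p = 0.762). A noncoding entry named after it, linc-Crim1-BP, also overlapped. It had 26.0, 33.2 and 37.1 in Fezf2 KO cortex, against 52.4, 55.0 and 26.6 in wild type cortex (log2 -0.41, limma adjusted p = 0.797).

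The third group holds small binding proteins and an opsin. Crym, a crystallin that binds thyroid hormone, had the lowest ratio of the 10: 131, 999 and 794 in Fezf2 KO cortex, against 2055, 2613 and 1985 in wild type cortex. Each Fezf2 KO library was far below every wild type library, yet the Fezf2 KO libraries differed 7.64-fold among themselves, Fezf2 KO 1 being far below the others. The mean was 641 ± 454 in Fezf2 KO and 2218 ± 344 in wild type (SD, n = 3 each), 28.9% of wild type. Limma, which averages log2 values, gave a log2 change of -2.22 (SE 0.655, limma adjusted p = 0.278). It was -1.80 by edgeR with TMM (adjusted p = 0.327) and -1.79 by DESeq2 (adjusted p = 0.389). Without Fezf2 KO 1 limma's log2 change was -1.30 and its adjusted p 0.0141. Without both Fezf2 KO 1 and wild type 1 these were -1.35 and 0.0447, and over all alternatives the adjusted p ran from 0.0141 to 0.875.

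S100a10 (p11), the partner of annexin A2, varied most within wild type cortex. It had 1634, 1969 and 971 in Fezf2 KO cortex, against 1857, 1129 and 2591 in wild type cortex. The lowest and the highest library came from litter m2, the lowest being Fezf2 KO 3. The log2 change was -0.27 (95% interval -1.02 to 0.49, limma adjusted p = 0.91), and it was 0.31 in litter m1 and -1.42 in litter m2 (1 library a genotype), so no direction can be given. Opn3 (encephalopsin), a non-visual opsin, had 179, 245 and 253 in Fezf2 KO cortex, against 260, 240 and 221 in wild type cortex. Its log2 change was -0.11 (95% interval -0.46 to 0.25, limma adjusted p = 0.927), and without Fezf2 KO 1 it was 0.053.

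**Figure D2:**
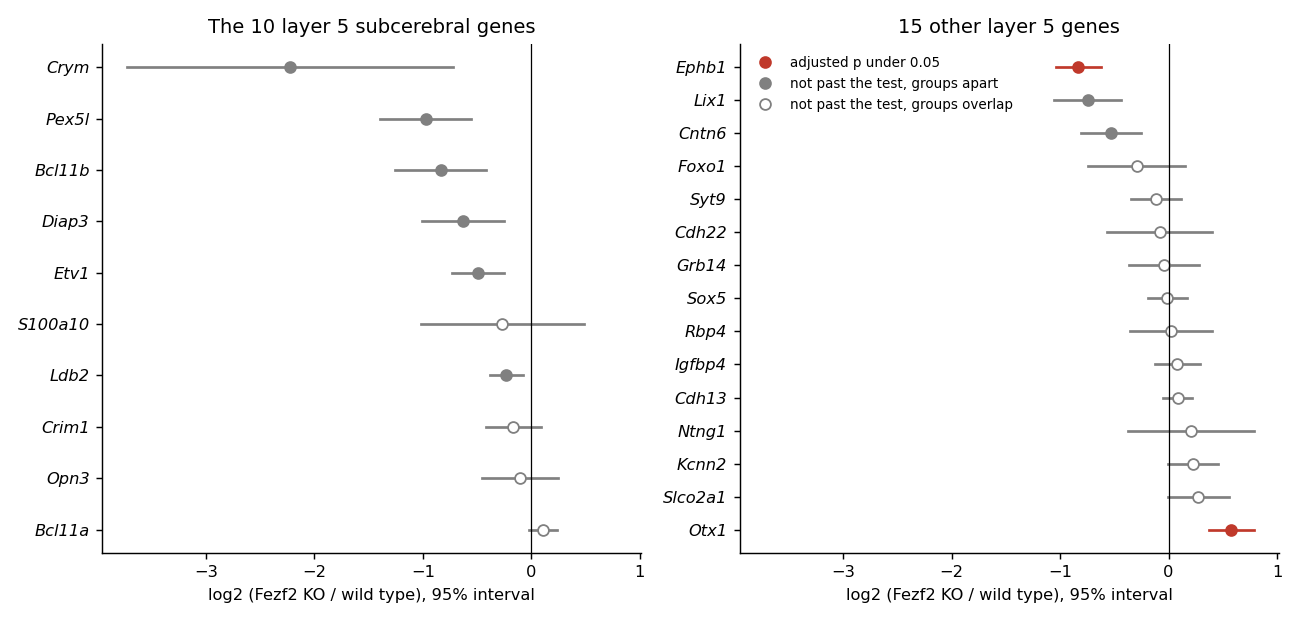
Log2 ratio of Fezf2 KO to wild type (horizontal axes) with limma's 95% interval for the 10 genes (left) and 15 other layer 5 genes (right). Filled points are genes whose genotypes do not overlap, and red marks an adjusted p under 0.05, reached by Ephb1 (-0.83) and Otx1 (0.58) and by 0 of the 10.

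The 6 genes that did not overlap were also compared within each litter. In litter m1 (2 libraries a genotype) and in litter m2 (1 library a genotype) the log2 change was -0.89 and -0.72 for Bcl11b, -0.99 and -0.93 for Pex5l, and -0.21 and -0.27 for Ldb2. It was -0.56 and -0.36 for Etv1 and -0.71 and -0.48 for Diap3. Crym had -2.68 in litter m1, which holds Fezf2 KO 1, and -1.32 in litter m2. Without both Fezf2 KO 1 and wild type 1 the log2 change of the other three was -0.24 for Ldb2, -0.36 for Etv1 and -0.52 for Diap3, with limma adjusted p of 0.595, 0.393 and 0.642 in that order. Each of the 6 genes was lower in Fezf2 KO in both litters, and in 16 of 16 alternative fits its log2 change stayed below 0. These 6 were taken because their genotypes do not overlap. That choice fixes the sign within each litter and when libraries are left out, so the agreement there is no further evidence.

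A wider set of 16 layer 5 genes was used to place the 10, of which 15 were matched and tested. Of these 15, 1 fell, 1 rose and 13 did not pass, against 0.308% of all genes called lower and 0.404% called higher by limma. Ephb1, a receptor for ephrin-B ligands on growing axons, fell to 4075, 5161 and 4551 in Fezf2 KO cortex, against 8828, 8050 and 7598 in wild type cortex. Its Fezf2 KO libraries were far below wild type (log2 -0.83, SE 0.091, limma adjusted p = 0.00594), and its adjusted p stayed under 0.05 whichever single library was left out (0.0046 to 0.041), but was 0.129 in litter m1 alone. Otx1, which encodes a homeodomain factor made in deep layers, rose to 2622, 2092 and 2612 in Fezf2 KO cortex, against 1629, 1631 and 1616 in wild type cortex. Wild type libraries agreed closely, and the rise had a log2 of 0.58 (SE 0.091, limma adjusted p = 0.035). That call was lost without Fezf2 KO 1 (limma adjusted p = 0.0887), Fezf2 KO 3 (0.14) or wild type 1, 2 or 3 (0.106, 0.118 and 0.129), and it passed without Fezf2 KO 2 (0.00591). It was 0.242 with the striatal covariate described further on and 0.369 in litter m1 alone.

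Another pair of the wider set had no overlap. Lix1 had 393, 432 and 531 in Fezf2 KO cortex, against 665, 756 and 846 in wild type cortex (log2 -0.75, SE 0.134, limma adjusted p = 0.0584). In the fit that blocks on litter the adjusted p was 0.0169, with 0.365% of all genes called lower, and over all its alternatives it ran from 4.84e-05 to 0.313. Cntn6, a contactin adhesion protein, had 233, 291 and 290 in Fezf2 KO cortex, against 386, 362 and 425 in wild type cortex (log2 -0.53, SE 0.121, limma adjusted p = 0.133). DESeq2 called it (adjusted p = 0.0147), and its other alternatives ran from 0.12 to 0.637. The remaining 11 had overlapping genotypes. They include Cdh13, Cdh22, Igfbp4, Kcnn2 and Sox5, and the median log2 change of the 15 was -0.011. Sox5 is also counted in the corticothalamic list that follows.

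Corticothalamic genes of layer 6 are the nearest related set. Of 13 tested, 6 fell and 0 rose, against 0.308% of all genes called lower and 0.404% called higher by limma. The other 7 did not pass, and stood at 87.5% (Rprm, without overlap) to 105% (Nfib) of the wild type mean. The median log2 change of the 13 was -0.195. When 1 library was left out 5 to 6 fell, Grik3 being lost without Fezf2 KO 3 and without wild type 2. In litter m1 alone 2 fell, Tle4 and Zfpm2, and 3 fell without both Fezf2 KO 1 and wild type 1. Tle4, a corepressor, had 1941, 2134 and 1933 in Fezf2 KO cortex, against 6410, 6772 and 6188 in wild type cortex (log2 -1.69, SE 0.061, limma adjusted p = 3.63e-05). Tle4 had a tight spread in Fezf2 KO libraries where Bcl11b, Pex5l and Crym had a wide one. The coefficient of variation in Fezf2 KO libraries was 28.5% for Bcl11b, 26.7% for Pex5l and 70.8% for Crym. In wild type libraries it was 11.7%, 5.24% and 15.5% in the same order of genes. Of the 6 corticothalamic genes that fell, Tle4 (5.67%), Zfpm2 (4.66%) and Grik3 (5.40%) had a tight spread in Fezf2 KO libraries. Syt6 (31.3%), Foxp2 (30.4%) and Ppp1r1b (22.9%) had a wide one, with Fezf2 KO 1 lowest and Fezf2 KO 2 highest.

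The spread of Fezf2 KO libraries had a common order. In 5 of the 10 genes (Bcl11b, Crym, Pex5l, Etv1 and Crim1) Fezf2 KO 1 was lowest, Fezf2 KO 3 next and Fezf2 KO 2 highest, as in 3344 of the 17557 genes tested. Striatal genes had the same order: the mean of their centred log2 values was -1.13, 0.29 and -0.49 in Fezf2 KO cortex, against 0.68, 0.37 and 0.28 in wild type cortex. Of 19 striatal genes tested, 0 passed limma or edgeR, DESeq2 called 2 (Penk and Meis2), 14 were lower at an unadjusted p under 0.05, 9 had no overlap, and the median log2 change was -1.07. Without Fezf2 KO 2, limma called 9 of them. Penk, which encodes enkephalin, had 141, 305 and 172 in Fezf2 KO cortex, against 677, 502 and 362 in wild type cortex.

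**Figure D3:**
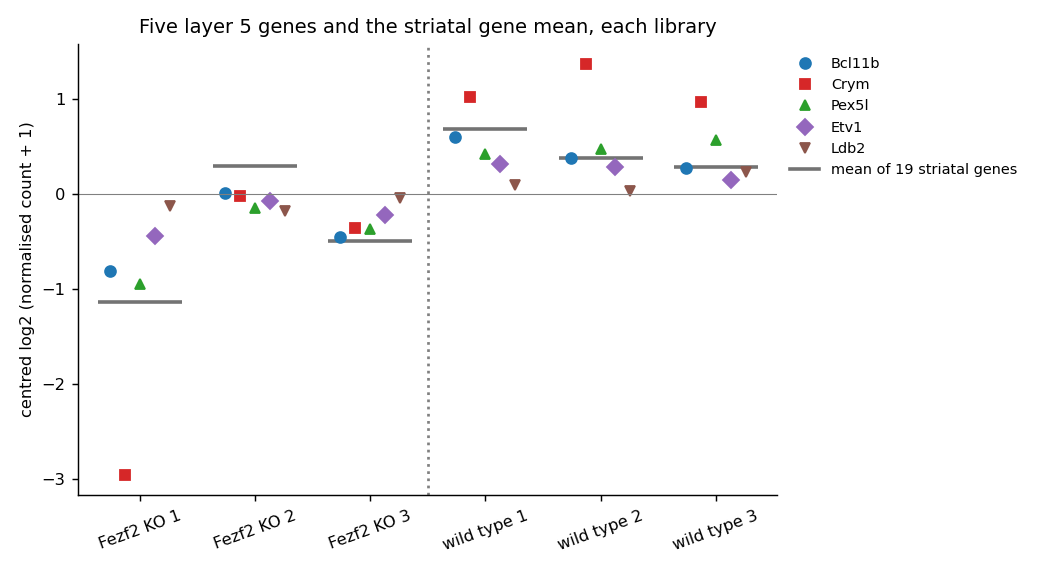
Centred log2 of the normalised count plus 1 (vertical axis) of Bcl11b, Crym, Pex5l, Etv1 and Ldb2 in each library, with the mean of 19 striatal genes as a grey bar. Striatal genes stand at -1.13 in Fezf2 KO 1 and 0.29 in Fezf2 KO 2, and Crym, Bcl11b, Pex5l and Etv1 are lowest and highest among Fezf2 KO libraries in the same places, while Ldb2 is not.

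In a limma fit that also held the striatal mean, Bcl11b had a log2 change of -0.31 (SE 0.059), Pex5l one of -0.55 (SE 0.167), Etv1 one of -0.26 (SE 0.104) and Crym one of -0.61 (SE 0.546). Those of Diap3 (-0.59, SE 0.246) and Ldb2 (-0.28, SE 0.094) stayed near their values without it. All 6 remained below 0 and 0 of the 10 passed in this fit, where 0.131% of all genes were called lower. Crim1 (0.030) and Opn3 (0.18) changed sign, and Bcl11a stood at 0.00045 (SE 0.064). Of the 6 corticothalamic genes that fell, 5 passed in this fit and Grik3 did not. Syt6 had -1.43 in it against -1.87 with genotype alone, Foxp2 -1.26 against -1.74 and Ppp1r1b -0.96 against -1.32. Tle4 had -1.61 against -1.69, Zfpm2 -1.83 against -1.89 and Grik3 -0.33 against -0.40. The covariate differs between the genotypes and rests on the same 6 libraries, so the part of striatal tissue in these results was not tested.

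**Figure D4:**
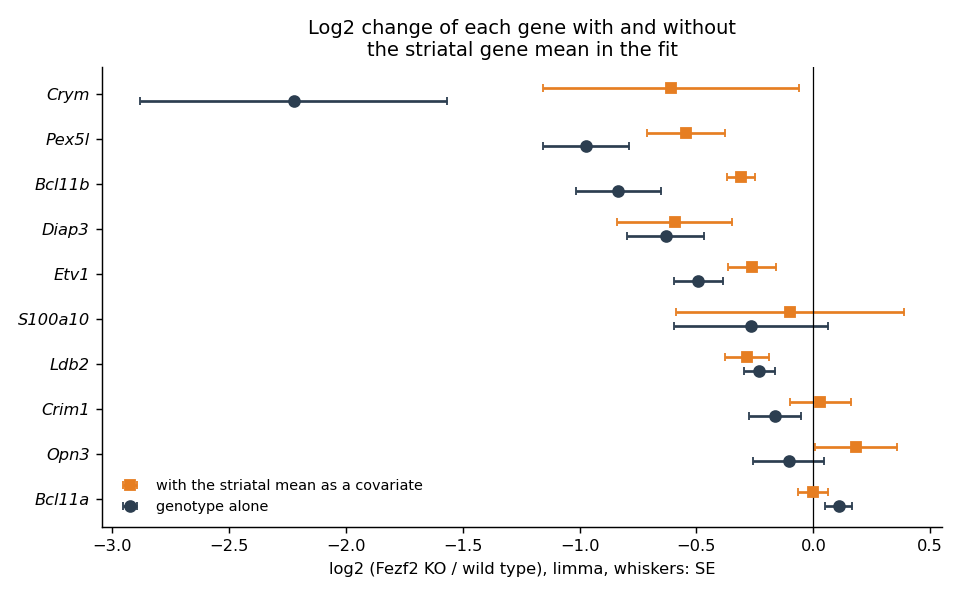
Log2 ratio of Fezf2 KO to wild type by limma (horizontal axis, whiskers SE) for each gene, with genotype alone (circles) and with the striatal gene mean as a covariate (squares). Bcl11b goes to -0.31 and Crym to -0.61, while Diap3 (-0.59) and Ldb2 (-0.28) stay near their values with genotype alone.

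Genes with the profile most like a given one over the 6 libraries were taken by the smallest root mean square difference of centred log2 values, among 12261 genes. For Bcl11b these were Kcnj12 (0.111), an inward rectifier potassium channel gene, the phosphodiesterase gene Pde7b (0.116), Kctd8 (0.123), Tmem132e (0.126) and Sema3e (0.129), a repulsive axon guidance ligand. Sema3e had 90.9, 181 and 127 in Fezf2 KO cortex, against 267, 273 and 242 in wild type cortex. Its order of Fezf2 KO libraries was that of Bcl11b, which the choice by profile favours. For Crym they were Nts (0.317), which encodes neurotensin, Slc35d3 (0.381), Isl1 (0.387), Crabp1 (0.433) and Rxrg (0.471). Isl1 belongs to the striatal list and so to the covariate above. In that order, the log2 change with the striatal covariate was -0.60, 0.13, 0.26, 0.21 and -0.019. With genotype alone it was -2.08, -1.94, -2.03, -1.70 and -1.85. Absence from the striatal list does not show that a gene is not made in the striatum. Isl1 had 12.2, 195 and 77.7 in Fezf2 KO cortex, against 288, 250 and 189 in wild type cortex. Among the 10 genes themselves the profile nearest to that of Bcl11b was Pex5l's, at 0.171. These distances describe 6 libraries that share genotype and litter.

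Other cells that make some of the 10 genes were measured through their markers. Endothelial and mural genes (12) summed to 14928 to 16384 in Fezf2 KO and 12053 to 15274 in wild type libraries, with 0 past limma, edgeR or DESeq2. Of them 3 were higher at an unadjusted p under 0.05, 4 were higher without overlap, and the median log2 was 0.16. Among all 17557 genes tested, 1334 were higher without overlap. GABAergic interneuron genes (16 entries) summed to 68079 to 73330 in Fezf2 KO and 60396 to 63201 in wild type libraries. At an unadjusted p under 0.05, 4 of these entries were higher and 0 lower, and 5 were higher without overlap. By limma 2 passed as higher, Npy (log2 0.69, adjusted p = 0.0402) and Sp8 (0.43, 0.0457), and 0 as lower. Neither passed without Fezf2 KO 3 or without any 1 wild type library (adjusted p from 0.0671 to 0.17), and Sp8 did not pass without Fezf2 KO 1 (0.103) or 2 (0.124). With litter as a block Npy had an adjusted p of 0.0686. Sp8 had adjusted p of 0.0600 by edgeR with TMM, 0.0547 by limma-voom and 0.0506 by limma without the filter, and DESeq2 called 3 (Npy, Sp8 and Lhx6). Hippocampal field genes (10) summed to 5710 to 11620 in Fezf2 KO and 4903 to 7415 in wild type libraries, with 0 past limma or edgeR and 1 past DESeq2 (Fibcd1). Of them 2 were higher at an unadjusted p under 0.05 and 2 were higher without overlap. The part of these cells in the layer 5 values was not tested.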

How the data were processed

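Total RNA of dissected cortex was sequenced from 3 Fezf2 KO and 3 wild type newborn pups, 1 brain per library, per the labels' protocols as TruSeq libraries read by a Genome Analyzer II. Bowtie, STAR, DESeq and the build mm9 are named, with no versions, per the submitters' processing notes. The deposited values were a normalised signal: per gene, a read count over the library's size factor, rounded. The value of 1 read was 0.812 to 0.936, and 100% of values were whole multiples of it within 0.006, which gave back whole reads (44978380 to 52872577 per library). On these reads edgeR called 121 genes. A count of 0 allows 3 reads, 2.44 to 2.81 units; this covers counting error only.

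The main test was limma on log2(value + 1), with a trend and genotype as the single term, over 17557 genes that reached 10 units in 3 libraries or more, called at a Benjamini-Hochberg adjusted p under 0.05 over all of them. On simulated data with 200 genes changed among 17557, limma recovered 49.9% of 1.5-fold and 77.5% of 2-fold changes with 8.42% false calls. That share of false calls is above the nominal 0.05. The simulated counts were independent, with no litter or tissue differences between libraries, so these rates need not hold for the 10 genes. Alternatives were a pseudocount of 0.5, no filter, edgeR (TMM, RLE), limma-voom, DESeq2, the striatal mean as a covariate, a replicate block for litter, litter m1 by itself, and the omission of every library in turn. Litter comes from the labels and pairs libraries. Over 14913 genes with a mean of at least 50, the correlation of deviations from the genotype means was -0.128 to 0.247 for the 5 same-litter pairs and -0.201 to -0.056 for the 4 others. The chi-square per degree of freedom between any pair of libraries was 8.86 to 33.0, so none was a copy of another.

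The genes and lists were chosen with earlier results of these data known, and the meningeal and choroid plexus lists after the values were seen. Named genes were Fezf2, the 10 genes, genes of the wider layer 5 list past the test or at an unadjusted p under 0.05, the 5 nearest profiles to Bcl11b and to Crym (mean of at least 50, predicted genes left out), noncoding entries named after one of the 10, and up to 3 genes of each other list. For the corticothalamic list all 6 that fell are named instead, for their spread. Rprm and Nfib are named as the ends of the range of the others. Pcp4 and 1 corticothalamic gene were not matched. For the cortical projection neuron markers, 2 genes of the list are not reported here. Promoter sequences are RefSeq's, in GRCm38.p6. Software was limma 3.58.1, edgeR 4.0.16 and DESeq2 1.42.0 in R 4.3.3, and pandas 2.3.3, numpy 2.4.6 and matplotlib 3.10.9 in Python 3.11.15.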

Additional observations from a re-analysis of the deposited data

Results flagged for a closer look

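Crim1 differed between the litters in direction. In litter m1 both Fezf2 KO libraries were below both wild type libraries (log2 -0.27), while in litter m2 the single Fezf2 KO library was above the single wild type library (log2 0.051). The genotype by litter interaction in limma was 0.32 (SE 0.162, unadjusted p = 0.0967, adjusted p = 0.9998), so the difference did not pass. Another pair of genes changed sign between litters while their libraries overlapped in litter m1. S100a10 had 0.31 in litter m1 and -1.42 in litter m2, with an interaction of -1.72 (SE 0.410, limma unadjusted p = 0.00635, adjusted p = 0.9998). Opn3 had -0.25 in litter m1 and 0.19 in litter m2, with an interaction of 0.45 (SE 0.326, unadjusted p = 0.221, adjusted p = 0.9998). In litter m2 each rests on 1 library a genotype.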

How the results depend on the processing

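Of the values recomputed, 0 of the 10 genes passed in the main fit, with a pseudocount of 0.5, without the filter, with edgeR, with limma-voom, with litter as a replicate block, in litter m1 alone or with the striatal covariate. DESeq2 called 2 of them, 4 of the 15 other layer 5 genes and 403 genes in all, against 2 of the 15 and 125 in all in limma. With litter as a block limma called 3 of the 15 and 138 in all, and among the 25 layer 5 genes only the call of Lix1 changed. In litter m1 alone it called 28 in all and 0 of the 15, and with the striatal covariate 39 in all and 1 of the 15. Leaving out 1 library gave 60 to 128 genes in all, 0 to 2 of the 10 and 1 to 2 of the 15. Without both Fezf2 KO 1 and wild type 1, chosen after the data were seen, 39 passed in all, 1 of the 10 (Crym) and 1 of the 15. The Bcl11b to Bcl11a log2 ratio ranged from -1.22 to -0.71 when 1 library was left out, and was -0.94 with litter as a block. There the exact permutation p was 0.167, the smallest that splits within litters allow. The sign turned for S100a10 in litter m1 alone (0.31), without Fezf2 KO 3 (0.029) and without wild type 3 (0.014), over a range of -0.59 to 0.029 when 1 library was left out. It turned for Opn3 without Fezf2 KO 1 (0.053, in a range of -0.20 to 0.053), without both replicates 1 (0.11), in litter m2 alone (0.19) and with the striatal covariate (0.18). It turned for Crim1 in litter m2 alone (0.051) and with the striatal covariate (0.030). The causes were not tested. Depth limits Diap3 most, at 52 to 91 reads per library.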
